A study of Homo sapiens with 7 samples.

Results

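The early gene body is described here as the stretch from 1 to 10 kb downstream of position 0 of an average gene profile, cut into 36 bins of 250 bp. These are 36 of the 488 such bins that each profile holds between -2 and 120 kb, and the same bins were read in each of the 7 libraries. The stretch is defined by distance alone, not by its signal, but it was chosen with earlier results of these data known. Position 0 is taken as the transcription start, because most profiles peak shortly after it; the labels and headers do not define it. The profiles average an unnamed set of genes, so no gene, chromosome or sequence belongs to a bin.

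The data are global run-on sequencing (GRO-seq) profiles of MRC5VA, an established line of SV40-transformed human lung fibroblasts grown in DMEM under standard conditions. In GRO-seq, polymerases that are engaged on DNA in isolated nuclei extend their RNA for a short time, here 5 minutes, with bromo-uridine, and the purified labelled RNA shows where they were. A single library came from unirradiated cells, labelled 0 h, and 6 further libraries, 1 for each time, came from cells harvested 2, 5, 8, 10, 12 or 24 h after ultraviolet C (UVC) at 15 J per square metre. No unirradiated library of a later time was analysed here, so time in culture and time after UVC cannot be told apart.

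RNA polymerase II usually pauses shortly after it starts, is released by the kinase P-TEFb, and gathers speed over the early part of the gene before it reaches full elongation rate. UVC makes pyrimidine dimers, bulky lesions that stop an elongating polymerase on the transcribed strand and are cleared there by transcription-coupled nucleotide excision repair. The farther a polymerase has to travel, the more likely it is to meet such a lesion. Run-on signal at a distance rises with the number of engaged polymerases there. It therefore cannot tell more frequent initiation from slower movement, and in bulk samples it also cannot tell fewer active cells from less transcription per cell.

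The window held 1442414 to 3038699 recovered reads per library, and 35607 to 107200 reads covered each of its positions. Recovery of reads from the deposited values is described with the processing. The mean signal of the window had a counting standard error of at most 0.0042 in deposited units, and that of a single 250-bp bin one of at most 0.023. Neighbouring bins share reads, with a counting correlation of 0.25. Each condition has 1 library, so no test between conditions was possible. Intervals below cover counting error only and leave out the spread between cultures.

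Signal was higher throughout the early gene body at each time after UVC than in untreated cells, on the deposited scale and relative to each library's own sum. The mean of the window was highest at 2 h and, among the UVC libraries, lowest at 24 h. Scaling to the farthest upstream kilobase instead put the window's log2 ratio below 0 at 8 h (-0.029) and 24 h (-0.14). The mean signal of the window was 4.08 in untreated cells, 5.92 after 2 h, 5.06 after 5 h, 4.94 after 8 h, 4.99 after 10 h, 5.04 after 12 h and 4.36 after 24 h. The 5 h to 12 h libraries thus lay within a narrow band, between the 2 h library above them and the 24 h and untreated libraries below. As plain ratios to untreated, the window stood at 1.45 after 2 h, 1.24 after 5 h, 1.21 after 8 h, 1.22 after 10 h, 1.23 after 12 h and 1.07 after 24 h. Of the excess over untreated seen after 2 h, 47.0% was gone after 5 h, 53.5% after 8 h, 50.9% after 10 h, 47.7% after 12 h and 84.9% after 24 h. On the deposited scale the excess was thus nearly the same at 5 h and 12 h (0.973 and 0.960 units) and smaller at 8 h (0.853).

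The factor that scaled each library is not stated, so the main measures are also given on a scale that the library itself sets. Ratios to untreated are on the deposited scale unless another is named. Each profile was divided by its own mean from 0 to 100 kb, which makes 1 the average of that library over this range. On that scale the window stood at 1.22 in untreated cells, 2.03 after 2 h, 1.65 after 5 h, 1.57 after 8 h, 1.53 after 10 h, 1.49 after 12 h and 1.28 after 24 h. On this scale the level was lower at each later time from 5 h to 12 h, which it was not in the deposited values. The 2 scales differ by a constant for each library, which added 0.20 to the log2 ratio after 2 h, 0.13 after 5 h, 0.088 after 8 h and 0.034 after 10 h, and took away little after 12 h (-0.013) and 24 h (-0.022).

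**Figure D1:**
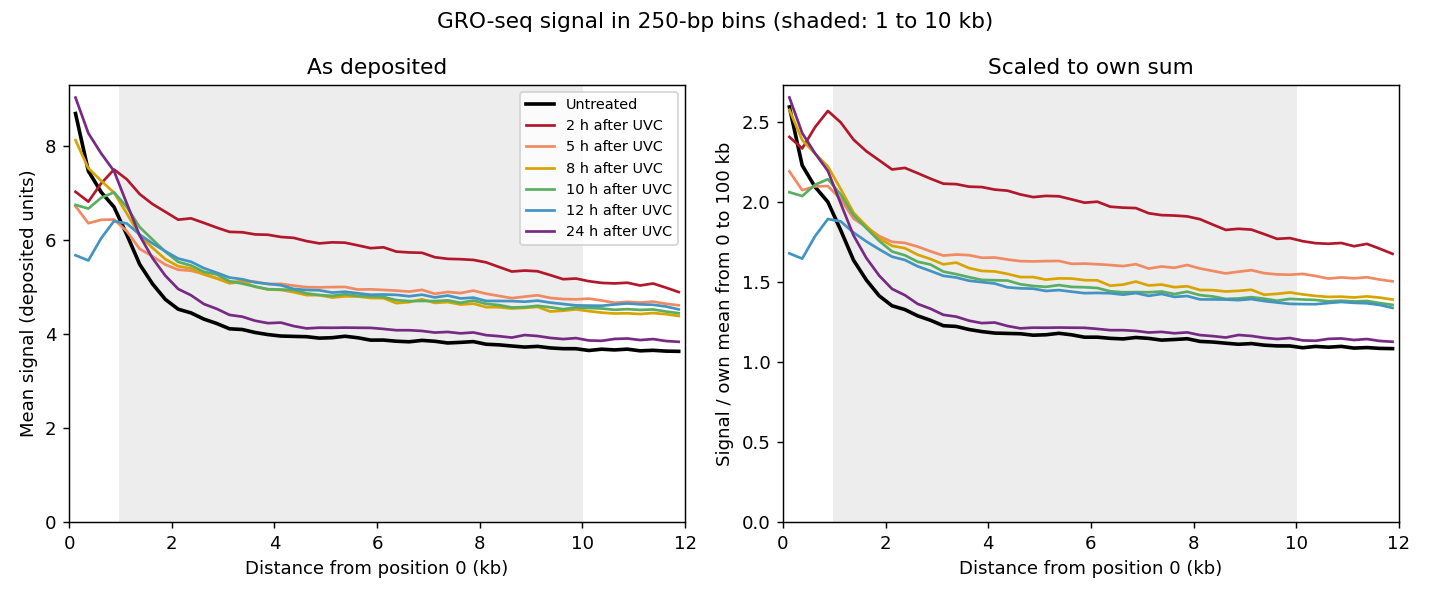
Mean GRO-seq signal in 250-bp bins against distance from position 0 (kb), in deposited units (left) and divided by each profile's own mean from 0 to 100 kb (right), 1 line per library, with the early gene body shaded. The 2 h line runs highest across the shaded stretch, and from 2.5 kb on the 24 h line lies just above untreated with the other 4 between. Nearer the start these lines cross. In deposited units the 24 h library (6.77) lies above those of 5 h to 12 h in the bin starting at 1 kb. In the right panel the 24 h library (1.99) lies above only the 12 h library (1.88) of these in that bin.

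As a share of all signal from 0 to 100 kb, the early gene body held 10.99% in untreated cells (95% Wilson interval 10.97 to 11.01). It held 18.29% after 2 h (18.26 to 18.31), 14.88% after 5 h (14.85 to 14.90), 14.12% after 8 h (14.10 to 14.14), 13.74% after 10 h (13.72 to 13.75), 13.45% after 12 h (13.44 to 13.47) and 11.56% after 24 h (11.54 to 11.57). No 2 of the 7 intervals overlapped. At equal signal everywhere the window would hold 9% of the total, which is its part of the length. Of the share gained by 2 h, 46.7% was gone after 5 h, 57.1% after 8 h, 62.4% after 10 h, 66.2% after 12 h and 92.2% after 24 h.

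The share fell with each later time over the 6 UVC libraries (Spearman's rank correlation -1). The exact two-sided permutation p of this correlation was 0.0028, and the adjusted p was 0.017. The window and the measure were chosen with earlier results of these data known, which the adjustment does not cover. Pearson's r was -0.87, with a two-sided p of 0.042 by exact permutation and an adjusted p of 0.11, so the linear form of the relation did not pass 0.05 after adjustment. Leaving out the extremes of time, 2 h and 24 h, r was -0.99 over the other 4. The 2, 5 and 8 h libraries are the least deep and the 10, 12 and 24 h libraries the deepest. Within each of these sets of 3 the rank correlation was -1, where the smallest two-sided p is 0.33. That value is fixed by the order of all 6 libraries, so the split is no separate check on depth. The share of signal in one window falls when that of others rises, so this relation is not separate from a return of signal to the far gene body.

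The deposited mean signal of the window gave no relation with time that passed 0.05. Its Spearman rank correlation was -0.77 (exact two-sided permutation p = 0.10, adjusted p = 0.15) and its r -0.86 (p = 0.057 by the same exact test, adjusted p = 0.11). With only the 4 libraries from 5 h to 12 h, r was -0.085, so the relation rests on the 2 h and 24 h libraries. The rank correlation was -1 within the 3 least deep libraries and -0.50 within the 3 deepest. These are 2 of 3 trends computed, and the adjustment by the Benjamini-Hochberg method covers both coefficients of all 3.

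A bin was counted when its ratio lay at least 25% above untreated. On the deposited scale 35 of the 36 bins reached this threshold after 2 h, against 13.5% of all 400 bins from 0 to 100 kb. The counts were 27 after 5 h (background 9.5%), 0 after 8 h (background 0%), 1 after 10 h (background 0.25%), 20 after 12 h (background 7%) and 0 after 24 h (background 0%). At 2 h the exception was the bin starting at 1 kb, with a ratio of 1.19. The window's ratio lay close to this threshold at 5, 8, 10 and 12 h. The counts of 27 at 5 h, 0 at 8 h and 20 at 12 h thus go with window ratios of 1.24, 1.21 and 1.23.

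After scaling to the own sum, 36 bins reached this threshold after 2 h (background 18.8%), 33 after 5 h (background 17%), 33 after 8 h (background 13%), 29 after 10 h (background 10.2%), 5 after 12 h (background 2.5%) and 0 after 24 h (background 0%). The order in time thus differs between the scales. On both scales all 36 bins were above untreated at all 6 times. The share of all 400 bins above untreated rose from 22% after 2 h to 25.8%, 27%, 32%, 40% and 55% at 5, 8, 10, 12 and 24 h on the deposited scale. After scaling it was 26.8%, 31.8%, 32.2%, 35.8%, 36.8% and 32.5%.

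The median log2 ratio over the 36 bins was 0.56 after 2 h, 0.35 after 5 h, 0.29 after 8 h, 0.30 after 10 h, 0.32 after 12 h and 0.085 after 24 h. Over all 400 bins it was -0.51, -0.29, -0.19, -0.12, -0.067 and 0.0044 at the same times. On the deposited scale the gap between the window and the typical bin therefore narrowed from 5 h to 12 h as the typical bin came closer to untreated and the window stayed nearly level. The early gene body held 64.6% of all positive deposited differences from untreated between 0 and 100 kb after 2 h. It held 49.7% after 5 h, 51.0% after 8 h, 44.4% after 10 h, 38.4% after 12 h and 35.1% after 24 h. Scaled to the own sum, it held 56.6%, 44.5%, 45.3%, 42.3%, 39.1% and 41.5% from 2 h to 24 h, so the lowest value was then at 12 h. Its part of the length is 9%.

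On the deposited scale the neighbouring windows moved differently. In the first kilobase (0 to 1 kb), where paused polymerases give the start peak, the ratio to untreated was 0.955 after 2 h, 0.868 after 5 h, 1.001 after 8 h, 0.915 after 10 h, 0.793 after 12 h and 1.09 after 24 h. The middle gene body (10 to 30 kb) had ratios of 1.09 after 2 h, 1.12 after 5 h, 1.10 after 8 h, 1.14 after 10 h, 1.18 after 12 h and 1.04 after 24 h. Scaled to the own sum, its ratios were 1.246, 1.224, 1.168, 1.166, 1.168 and 1.029 in the same order. On that scale it was thus highest at 2 h and lowest at 24 h, as the early gene body was. At 2 h the mean of the first kilobase thus lay below untreated on the deposited scale (scaled to the own sum, its ratio was 1.10). Its 4 bins ran from a ratio of 0.809 next to position 0 to 1.12 in the bin that borders the early gene body. The mean excess from 10 to 30 kb was smaller than that of the early gene body, but there was no step at 10 kb. The 2 h ratio was 1.404 in the bin starting at 9750 bp, 1.403 at 10000 bp and still 1.35 at 11750 bp. The differences between the means of these windows at 2 h exceeded counting error and could not be tested between cultures.

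Distance mattered most at the start of the window. In untreated cells signal fell from 6.11 in the bin starting at 1 kb to 3.69 in the bin starting at 9.75 kb, a fall of 39.6%. From the first of these bins to the last it fell from 7.28 to 5.18 after 2 h (28.9%), from 6.18 to 4.73 after 5 h (23.4%), from 6.56 to 4.52 after 8 h (31.0%), from 6.69 to 4.56 after 10 h (31.9%), from 6.35 to 4.61 after 12 h (27.4%) and from 6.77 to 3.91 after 24 h (42.2%). The bin starting at 1 kb was the highest in all 7 libraries. The lowest bin started at 9250 bp or beyond in each.

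A straight line through the log2 signal of the 36 bins had a slope of -0.050 per kb in untreated cells (counting standard error 0.00045), a loss of 3.39% per kb. The slope was -0.044 after 2 h, -0.028 after 5 h, -0.043 after 8 h, -0.045 after 10 h, -0.040 after 12 h and -0.057 after 24 h, each with a counting standard error of 0.00045 or less. The 5 h library was therefore the flattest and the 24 h library the steepest, steeper than untreated. From 2 kb on, past the flank of the start peak, the 2 h line was the steepest (-0.039) and that of untreated cells shallower (-0.029). In deposited units the slope was -0.15 per kb in untreated cells, -0.18 after 2 h, -0.10 after 5 h, -0.15 after 8 h, -0.16 after 10 h, -0.14 after 12 h and -0.19 after 24 h. On the own-sum scale the steepest line was that of 2 h (-0.063 per kb), against -0.045 in untreated cells and -0.033 after 5 h. The order of the slopes thus depends on whether a loss is counted in percent or in units of signal.

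The log2 slope had no relation with time that passed 0.05. Over the 6 UVC libraries its Spearman rank correlation was -0.43 (exact two-sided permutation p = 0.42, adjusted p = 0.42) and its r -0.71 (p = 0.14 by the same exact test, adjusted p = 0.17). With only the 4 libraries from 5 h to 12 h, r was again -0.71. The rank correlation was 0.50 within the 3 least deep libraries and -0.50 within the 3 deepest.

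A single line describes these profiles poorly, and 4 sub-windows show where they bend. From 1 to 2.5 kb the signal of untreated cells fell by 22.5% per kb, on the flank of the start peak. The same stretch fell by 9.49% per kb after 2 h, 10.8% after 5 h, 14.4% after 8 h, 15.2% after 10 h, 10.5% after 12 h and 23.8% after 24 h. The untreated and 24 h libraries were therefore steep here and the other 5 shallow, a gap well beyond the counting error (standard errors of the log2 slopes at most 0.0057 per kb). From 2.5 to 5 kb the losses were 4.0% per kb in untreated cells, 2.68% after 2 h, 2.09% after 5 h, 3.77% after 8 h, 4.04% after 10 h, 3.91% after 12 h and 4.93% after 24 h.

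Farther in, the 2 h library stood apart. From 7.5 to 10 kb its signal fell by 3.62% per kb, against 1.78% in untreated cells, 1.41% after 5 h, 1.27% after 8 h, 1.35% after 10 h, 1.255% after 12 h and 1.29% after 24 h. The log2 slopes were -0.053 per kb after 2 h and -0.026 in untreated cells, and their counting standard errors 0.0027 and 0.0031. From 5 to 7.5 kb the 2 h library lost 2.68% per kb and the other 6 between 0.829% (12 h) and 1.41% (10 h) per kb. The 2 h library was the only one of the 7 whose loss per kb was larger from 7.5 to 10 kb than from 2.5 to 5 kb.

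**Figure D2:**
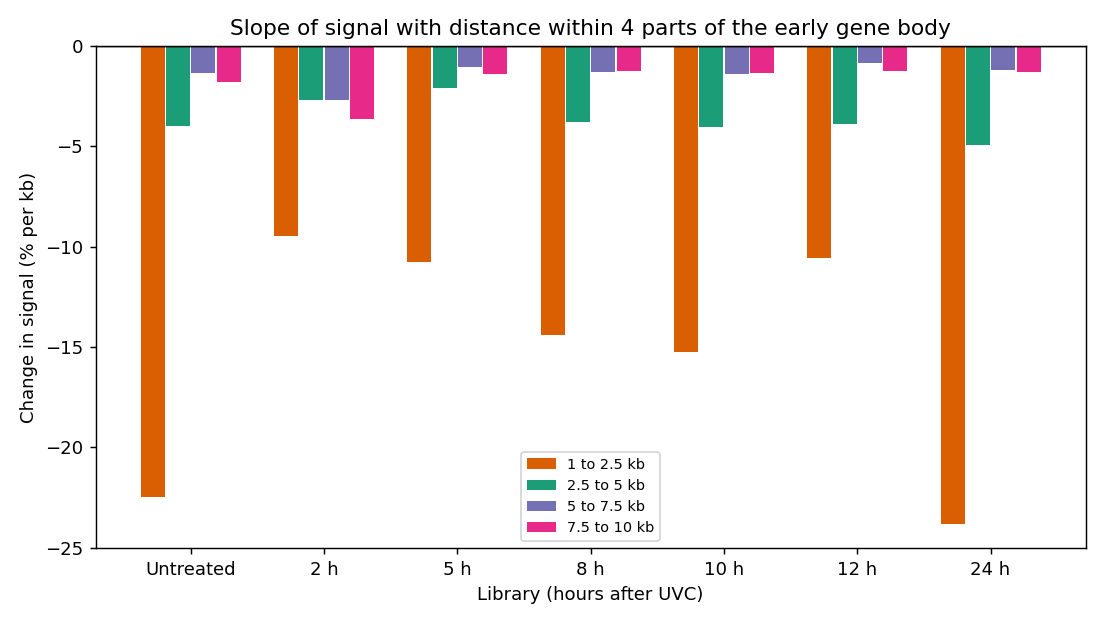
Change in signal with distance (% per kb, from a line through the log2 signal of 250-bp bins) in 4 parts of the early gene body for each of the 7 libraries. From 1 to 2.5 kb the untreated (-22.5%) and 24 h (-23.8%) libraries are steepest, and from 7.5 to 10 kb the 2 h library (-3.62%) is.

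The mean signal from 1 to 2.5 kb divided by that from 7.5 to 10 kb of the same library gives the tilt without a scale. It was 1.35 in untreated cells (95% counting interval 1.34 to 1.36), 1.257 after 2 h (1.252 to 1.262), 1.17 after 5 h (1.17 to 1.18), 1.28 after 8 h (1.27 to 1.28), 1.29 after 10 h (1.29 to 1.30), 1.253 after 12 h (1.249 to 1.257) and 1.41 after 24 h (1.41 to 1.42). The tilt fell by 2 h, was lowest after 5 h and did not return in a steady order. The 2 h and 12 h values could not be told apart within counting error.

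The excess over untreated was smaller at the inner edge of the window than beyond it from 2 h to 12 h. In the bin starting at 1 kb the ratio to untreated was 1.19 after 2 h, 1.01 after 5 h, 1.07 after 8 h, 1.10 after 10 h, 1.04 after 12 h and 1.11 after 24 h. In the bin just outside, starting at 750 bp, it was 1.12 after 2 h, 0.960 after 5 h, 1.05 after 8 h, 1.05 after 10 h, 0.955 after 12 h and 1.11 after 24 h. The 5 h and 12 h profiles thus crossed the untreated profile close to 1 kb on the deposited scale. The 5 h ratio of 1.01 in the bin just inside had a 95% counting interval from 1.002 to 1.02.

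The largest ratio after 2 h was 1.53 (95% counting interval 1.52 to 1.55), in the bin from 4000 to 4249 bp. The 7 bins within counting error of it lay between 3.5 and 5.25 kb. This ratio was 1.28 times that of the bin at the inner edge and 1.09 times that of the bin starting at 9.75 kb, which was 1.40. At 2 h the excess therefore had a maximum inside the window, with a steep inner side and a gentle outer side. A line through the log2 ratios rose by 0.10 per kb up to the maximum and fell by 0.022 per kb after it.

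At 5 h the ratio rose to a plateau instead. The largest value was 1.29 (1.28 to 1.31) in the bin from 9000 to 9249 bp. The 20 bins within counting error of it ran from 4 to 10 kb, so its position was not resolved. Just past the outer edge, in the bin starting at 10 kb, the ratio was 1.302, the largest of the 5 h library in any 250-bp bin from 1 to 100 kb. The 5 h plateau thus continued out of the window.

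At 8, 10 and 12 h the curve also rose steeply and then ran nearly level. The largest ratio was 1.248 (1.23 to 1.26) from 3250 to 3499 bp after 8 h, 1.2505 (1.24 to 1.26) from 4250 to 4499 bp after 10 h and 1.27 (1.26 to 1.29) from 4000 to 4249 bp after 12 h. Bins within counting error of these ran out to 7.5 kb after 8 h, 10 kb after 10 h and 9.75 kb after 12 h, so the maxima are shallow. With a background subtracted from each profile, the largest ratio lay near the outer edge instead, in the bin starting at 9750 bp at 8 h and 10 h and at 9250 bp at 12 h. Beyond the maximum the log2 ratio fell by 0.0047 per kb after 8 h and 0.0015 per kb after 10 h, and after 12 h its slope was 4.8e-05 per kb. These are small beside the fall of 0.022 per kb after 2 h.

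The 24 h library differed in shape. Its largest ratio within the window was 1.111 (1.10 to 1.12) in the bin from 1250 to 1499 bp. The 4 bins of the window within counting error of it lay between 1 and 2 kb. Just outside the window the ratio was slightly larger, 1.114 in the bin starting at 750 bp and 1.117 in that starting at 500 bp. In the bin starting at 9.75 kb the ratio was 1.06. Within the window the remaining excess after 24 h was therefore largest at the inner edge, where that of the 5 h and 12 h libraries was least.

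Scaling multiplies all bins of a library by the same factor, so it leaves the position of the largest ratio in place and changes its size. The largest scaled ratio was 1.76 after 2 h, 1.41 after 5 h, 1.33 after 8 h, 1.28 after 10 h, 1.26 after 12 h and 1.09 after 24 h. These values fell with each later time, whereas the deposited maxima were higher after 12 h (1.27) than after 8 h (1.248).

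**Figure D3:**
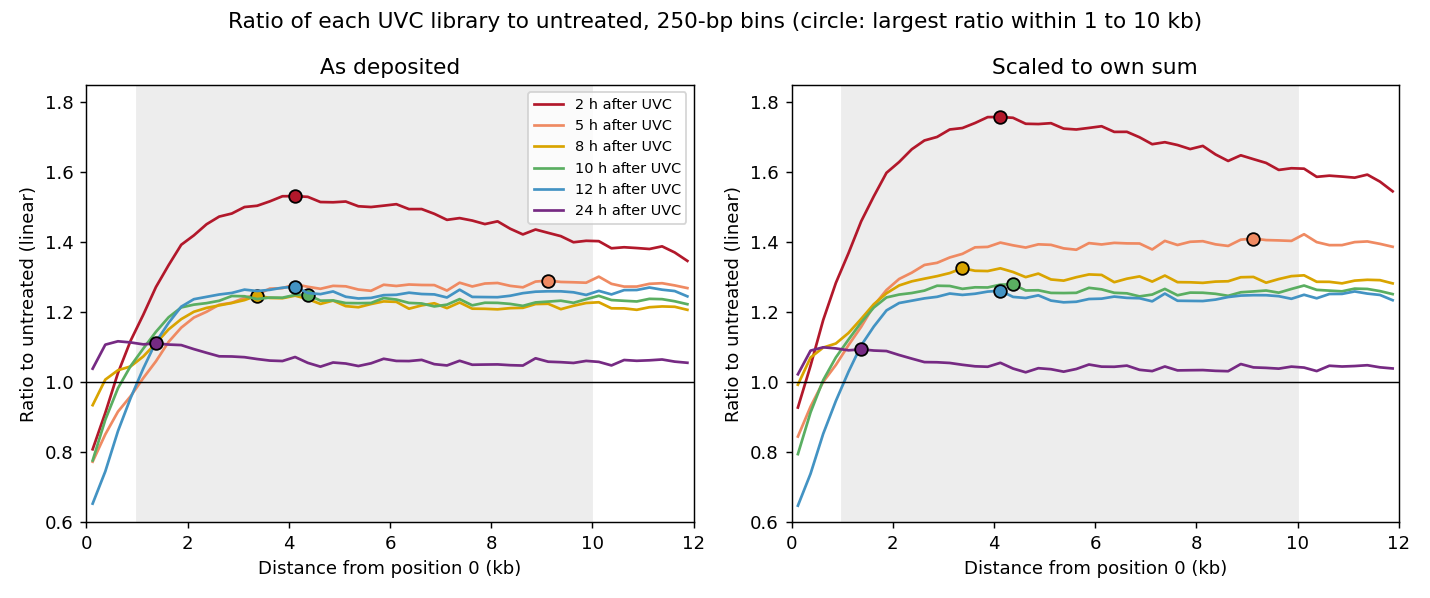
Ratio of each UVC library to the untreated library (linear axis) in 250-bp bins against distance from position 0 (kb), as deposited (left) and scaled to each profile's own sum (right), with the largest ratio between 1 and 10 kb circled. The 2 h curve peaks in the bin starting at 4 kb (1.53 deposited, 1.76 scaled), and the 5 h to 12 h curves run nearly level from about 4 kb on. Within the shaded stretch the 24 h curve is highest between 1 and 2 kb. Outside that stretch it is slightly higher still, in the bin starting at 500 bp (1.117 deposited).

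The largest difference in signal weights the ratio by the untreated signal, which falls with distance, and so tends to lie nearer the start than the largest ratio. On the deposited scale it was 2.12 units after 2 h, in the bin from 3750 to 3999 bp. It was 1.11 from 4000 to 4249 bp after 5 h, 1.04 from 2750 to 2999 bp after 10 h, 1.09 from 3000 to 3249 bp after 12 h and 0.662 in the bin starting at 1 kb after 24 h. After 8 h the largest difference of 1.02 fell in the same bin as the largest ratio, from 3250 to 3499 bp. Bins within counting error of these deposited maxima lay between 3 and 4.5 kb after 2 h and between 3.5 and 10 kb after 5 h. At the later times the ranges were the same as those given next for the scaled differences.

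After scaling to the own sum, the largest differences fell in the same bins at all 6 times. They were 0.903 after 2 h, 0.472 after 5 h, 0.399 after 8 h, 0.348 after 10 h, 0.312 after 12 h and 0.167 after 24 h, in units of the library's own mean. The bins within counting error of the maximum lay between 2.25 and 4.5 kb after 2 h, 3.5 and 9.25 kb after 5 h, 2.25 and 4.25 kb after 8 h, 1.75 and 4.5 kb after 10 h, 2 and 4.25 kb after 12 h, and 1 and 1.5 kb after 24 h. The 5 h library again had the broadest maximum.

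The 4 sub-windows give the same comparison with more reads behind each value. At 2 h the ratio to untreated was 1.33 from 1 to 2.5 kb, 1.51 from 2.5 to 5 kb, 1.49 from 5 to 7.5 kb and 1.43 from 7.5 to 10 kb. At 5 h it was 1.11, 1.26, 1.27 and 1.28 in the same order, so it rose with distance over all 4. At 24 h it was 1.10, 1.06, 1.06 and 1.05, with the highest value nearest the start. The outermost 3 sub-windows were close to each other after 8 h (1.24, 1.22 and 1.22), after 10 h (1.24, 1.23 and 1.23) and after 12 h (1.26, 1.249 and 1.252), each time above the innermost (1.15, 1.18 and 1.16).

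The innermost sub-window followed a time course of its own on the deposited scale. Its mean signal was 5.06 in untreated cells, 6.75 after 2 h, 5.64 after 5 h, 5.82 after 8 h, 5.95 after 10 h, 5.88 after 12 h and 5.58 after 24 h. Between 5 h and 8 h it was 1.03 times higher, while the sub-windows from 2.5, 5 and 7.5 kb stood at 0.983, 0.959 and 0.948 times their 5 h level. From 12 h to 24 h the innermost went to 0.949 times its level and the others to 0.844, 0.846 and 0.843 times. On the own-sum scale the innermost ratio between 5 h and 8 h was 1.003, and that between 12 h and 24 h was 0.943.

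**Figure D4:**
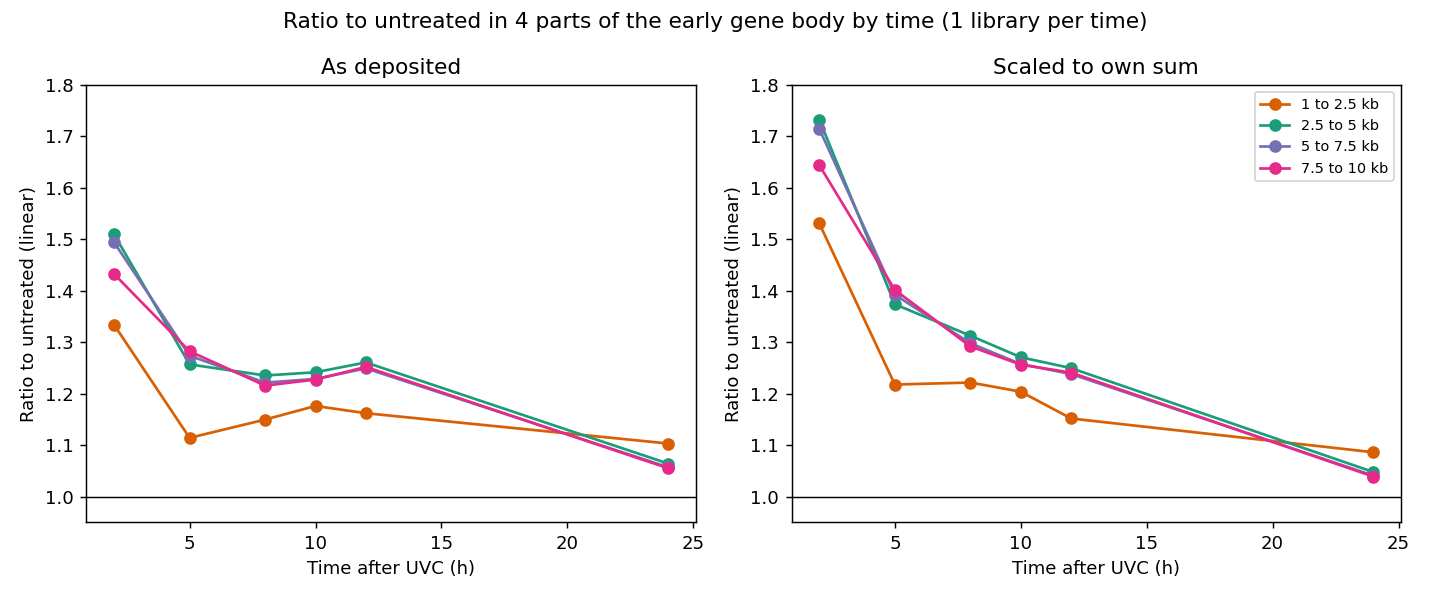
Ratio to untreated (linear axis) in 4 parts of the early gene body against hours after UVC, as deposited (left) and scaled to each profile's own sum (right), with 1 library per point. The part from 1 to 2.5 kb is the lowest of the 4 from 2 to 12 h and the highest after 24 h (1.10 deposited).

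Bin by bin, the step from 2 h to 5 h lowered the signal in 36 of 36 bins on both scales. From 5 h to 8 h the deposited signal was higher in the 6 bins between 1 and 2.5 kb and lower in the 30 beyond. From 8 h to 10 h it was higher in 34 bins, and from 10 h to 12 h it was higher in the 33 bins from 1.75 kb on and lower in the 3 before. From 12 h to 24 h it was lower in 35 bins and higher in the bin starting at 1 kb. On the own-sum scale 33 of 36 bins were lower at every successive time after UVC. The 3 exceptions lay between 1 and 1.75 kb and were higher after 8 h than after 5 h, and the bin starting at 1 kb was also higher after 24 h than after 12 h. Steps between times were not counted over all 400 bins, and neighbouring bins share reads. These counts therefore describe the window and do not set it apart from other stretches.

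The fine structure of the profiles was also compared between libraries. The bend of the profile left residuals from the straight line with a standard deviation of 0.096 (log2) in untreated cells, 0.027 after 2 h, 0.041 after 5 h, 0.059 after 8 h, 0.066 after 10 h, 0.052 after 12 h and 0.11 after 24 h. The 2 h profile was thus the straightest. Each bin's deviation from the mean of its neighbours had a standard deviation of 0.0078 to 0.012 (log2), and Pearson's r between untreated and each UVC library was 0.50 to 0.66 over 34 bins. The points of this description share their genes and neighbouring reads. They include the flank of the start peak before 2.25 kb, where the profiles bend, so r takes in that bend as well. In the ratio to untreated beyond 2.25 kb, the same deviations had between 0.808 and 1.36 times the variance due to counting. Beyond 2.25 kb the scatter of the ratios was therefore of the order of counting error. The r values cover other bins as well, so whether shared unevenness was absent from the ratios was not tested.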

How the data were processed

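The authors deposited for each of 7 libraries a profile of signal, the average read coverage over genes at 122001 positions from -2000 to 120000. Per the labels' protocols, sequencing of the strand-specific libraries gave single-end reads of 51 bases, and BWA 0.5.9 and the build hg19 (GRCh37) are named in the submitters' processing notes. The gene list, strand handling and scaling factor are not given in the sources used here. Libraries were grouped by title.

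With Python 3.11.15, NumPy 2.4.6 and SciPy 1.17.1, the value of a single read was recovered as the step of which 100% of a library's values were whole multiples (within 0.01 steps). The lowest autocorrelation of successive differences lay at a lag of 250 bases in all libraries, so reads were taken as extended to 250 bases. This gave 12003109 to 25795781 reads per profile. Counting errors follow from these reads, with intervals at 95%. A read is counted once for each gene it falls in, PCR duplicates cannot be recognised, and intervals cover counting error only.

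Means, log2 ratios (no pseudocount), shares with Wilson intervals, least-squares slopes and the bins of largest ratio and difference were computed. Trends used exact permutation tests over 720 orders. The code recovered the step, level, slope and position in 20 of 20 simulated profiles. Level and slope counted as recovered when within a few counting standard errors of the truth. A position counted when it lay near the true bin and within counting error of it, so the exact bin was not required. The simulated excess was a rounded peak inside the window, so positions on a plateau or at the window's edge were not checked. The window, bins and measures were chosen with earlier results of these data known. Bins named are the first, last, highest and lowest, those of largest ratio or difference, those at the window's bounds, the sub-windows, and the exceptions to a count. Tilt, step exceptions and the scatter of ratios were added after seeing the data. No gene is named, and the reference genome was not used.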

Additional observations from a re-analysis of the deposited data

How the results depend on the processing

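Values are in the order 2, 5, 8, 10, 12 and 24 h, preceded by untreated where it has its own. A value was taken to have moved once it left its 95% counting interval, which is so narrow that most changes of processing exceed it. No paired analysis was possible because only 1 library stands for each condition.

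The window's log2 ratio to untreated was 0.54, 0.31, 0.27, 0.29, 0.30 and 0.095 as deposited. Subtracting each profile's lowest 1-kb mean as a background gave 1.16, 0.79, 0.72, 0.71, 0.71 and 0.10. The ratio of the median bin of each UVC library to the median bin of untreated cells, which differs from the median of the 36 ratios, gave 0.59, 0.34, 0.29, 0.30, 0.32 and 0.077. Scaling to the farthest upstream kilobase gave 0.80, 0.21, -0.029, 0.046, 0.17 and -0.14, and so reversed the direction at 8 h and 24 h. The excess at those times thus depends on the scale chosen.

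The share (%) of a sum from 0 to 120 kb was 9.54, 16.3, 13.2, 12.6, 12.2, 11.96 and 10.1. After background subtraction it was 14.9, 32.0, 23.6, 21.5, 20.6, 19.9 and 17.4. Both kept the 7 libraries in their order. The background taken was 54.3% of the window's mean in untreated cells (from upstream), 29.4% at 2 h and 54.1% at 24 h (from 118 kb or beyond in each UVC library), where transcription may still contribute.

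The log2 slope per kb stayed within its counting interval in 500-bp bins in all 7 libraries. From 2000 bp on it was -0.029, -0.039, -0.019, -0.031, -0.030, -0.029 and -0.032, so that 2 h became the steepest and untreated lay among the shallower. After background subtraction it was -0.10, -0.062, -0.043, -0.068, -0.072, -0.065 and -0.12.

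The position of the largest ratio or difference stayed within its counting range with 500-bp bins and with a running mean of 3 bins where these were run. After background subtraction the largest ratio moved to bins starting at 9750 bp (8 h, out of its range), 9750 bp (10 h), 9250 bp (12 h), 9500 bp (5 h) and 1750 bp (24 h), and stayed at 4000 bp at 2 h. The ranges at 5, 10 and 12 h span most of the window, so these moves lie within them.

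Leaving out each UVC library in turn, Spearman's rank correlation with time was -1 each time for the share (exact permutation p = 0.017, the smallest that 5 libraries allow). For the share this outcome was fixed by the value of -1 over all 6 libraries, so it is no further check. The rank correlation was -0.70 to 0 for the slope and -0.90 to -0.60 for the level, none past 0.05.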
